A study of Mus musculus with 24 samples.

Results

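The genes described here are p53 itself, its main regulators and its direct targets outside the Bcl2 family, 32 genes in all of the 55487 gene identifiers in the deposited table. They were found in that table by gene symbol, each symbol matched 1 identifier, and all 32 passed the filter on low counts that left 18931 genes for testing. RNA-seq had been done on mouse LSK cells, lineage-negative cells with Sca1 and KIT on their surface, among which are blood stem cells and early progenitors. The cells came from control mice or from mice with a Tet-On MLL::ENL transgene (ME), and were cultured for 48 h with the fusion induced in the ME cells. MLL::ENL joins the chromatin regulator MLL (Kmt2a) to ENL (Mllt1) and is found in acute leukaemias.

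The 6 groups were E16 liver control, E16 liver ME, P14 marrow control, P14 marrow ME, 8wk marrow control and 8wk marrow ME, with 4 libraries in each. The E16 cells were the only ones from liver, so age and tissue cannot be told apart there. A Tet-On transgene is silent until an inducer is added. Which promoter and activator drove it, whether controls carried part of that system or received the inducer, and whether animals were pooled are not given in the sources used here. The labels do not say that replicates came from separate animals, and where they did not, p-values measure only the spread between these libraries, which may be technical.

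p53 is a transcription factor that is held low by the ubiquitin ligase Mdm2 and its partner Mdm4, and that accumulates after DNA damage, oncogene activity or nucleolar stress. It then raises genes that stop the cell cycle (Cdkn1a), kill the cell, repair DNA or restrain growth and metabolism, together with genes that switch it off again (Mdm2, Ppm1d, Ccng1). In blood stem cells p53 is known for limiting self-renewal and for removing damaged cells, and p53 protein is controlled mostly after translation, so the level of Trp53 RNA does not give its activity.

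Library totals lay between 33891949 and 69295621 counts. Levels are given as CPM, counts scaled to a common library total, on library sizes scaled by the TMM method, with replicates 1 to 4 in that order, and errors of means are SD over n = 4 libraries. Effects are log2 fold changes from the quasi-likelihood test of edgeR, fitted to all 24 libraries. That test gives no SE, so SE was derived as the absolute log2 fold change over the square root of the test's F statistic. A gene was called where its p, adjusted over all genes tested by the Benjamini-Hochberg method, was under 0.05. The labels were checked first: Mllt1 rose in ME by 1.54 ± 0.29, 1.60 ± 0.29 and 1.48 ± 0.29 log2 at E16, P14 and 8wk, Kmt2a by 0.85 ± 0.23, 1.03 ± 0.23 and 0.73 ± 0.23, and Skida1 by 4.39 ± 0.31, 4.29 ± 0.31 and 2.30 ± 0.30. Counts per gene cannot separate the fusion from the endogenous Mllt1 and Kmt2a. All 7 LSK markers were present in every group, Kit at a mean of 464.9 to 1463 CPM. On the first principal component 3 outlying libraries lay away from their groups: E16 ME replicate 4, 8wk control replicate 1 and 8wk ME replicate 4. On that component all 3 lay toward the other genotype of their age, so leaving them out widens the distance between the groups along it. At 8wk these were the control nearest the ME libraries and the ME library nearest the controls (10.8 and 17.6, beside 68.7 to 76.9 in the other controls and -63.5 to -39.8 in the other ME libraries). On the second component the 2 outlying ME libraries lay the other way. E16 ME replicate 4 (-18.3) and 8wk ME replicate 4 (-53.4) were there the ME libraries farthest from the controls of their age. All 8, 8 and 16 member calls in ME at E16, P14 and 8wk were kept without the 3. The 3 were picked after seeing the data, so that fit is no independent check of a call, here or in the paragraphs below.

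Upstream sequences are shown for Cdkn1a and Ccng1, both called higher in ME at 8wk, and for Ppm1d, called higher at every age. RefSeq promoter entries (GRCm38.p6) matched 26 of the 32 members by symbol, with 32 entries. The 250 bases before each start were searched for the p53 consensus response element, a 20-base palindrome of paired decamers without a spacer, which reads the same on both strands. The 4 invariant C and G bases were required and departures at the other positions were counted; no other motif was searched. In the 3 stretches below, from base -250 to base -31 before the start and printed 5′ to 3′ on the gene's strand, capitals mark the closest match to the element.
Cdkn1a, chr17:29090729-29090948, plus strand: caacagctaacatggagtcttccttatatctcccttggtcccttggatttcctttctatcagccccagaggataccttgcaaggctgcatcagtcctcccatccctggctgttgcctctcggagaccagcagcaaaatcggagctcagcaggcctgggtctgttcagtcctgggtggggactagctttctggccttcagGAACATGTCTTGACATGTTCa
Ccng1, chr11:40755317-40755536, minus strand: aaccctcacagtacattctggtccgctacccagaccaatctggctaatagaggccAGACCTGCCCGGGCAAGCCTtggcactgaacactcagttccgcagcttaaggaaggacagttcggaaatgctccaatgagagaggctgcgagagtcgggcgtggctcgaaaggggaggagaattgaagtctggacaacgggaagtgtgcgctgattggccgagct
Ppm1d, chr11:85311004-85311223, plus strand: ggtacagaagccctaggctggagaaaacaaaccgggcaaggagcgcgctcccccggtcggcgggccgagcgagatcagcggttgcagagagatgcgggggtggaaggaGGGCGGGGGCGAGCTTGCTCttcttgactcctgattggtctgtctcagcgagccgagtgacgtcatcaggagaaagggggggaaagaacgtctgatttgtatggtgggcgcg

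The Cdkn1a match, at -51 to -32 of the more upstream of its RefSeq starts, departs from the element at 1 position, and the Ccng1 match at -195 to -176 also departs at 1. The other Cdkn1a start lies 2790 bases downstream, and its closest match departs at 7 positions. A match with at most 1 departure was present in 0.0578% of all 32851 promoter entries of this length. The Ppm1d match, at -142 to -123, departs at 4 positions, a distance met by 3.93% of promoters. With at most 3 departures, 6 members held a match (Aen, Ccng1, Cdkn1a, Sesn1, Tigar and Trp53), against 1.14% of promoters. These are letter matches only, in genes listed because p53 is known to act on them.

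ME against control at each age asked which p53 pathway genes differed 48 h into culture with the fusion induced. At 8wk 15 of the 32 members rose and 1 fell. At E16 6 rose and 2 fell, and at P14 3 rose and 5 fell. Ppm1d, the phosphatase that switches p53 off, rose at each of the 3 ages, by 8.38-, 8.70- and 7.75-fold. Cdkn1a, which encodes the cell cycle inhibitor p21, rose 4.64-fold at 8wk and was not called at E16 or P14. In bulk RNA fewer cells of a type and less RNA per cell cannot be told apart.

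Over all 18931 genes, 21.8% were called at E16, 22% at P14 and 28.5% at 8wk, with 13.3%, 12.7% and 14.2% called higher and 8.47%, 9.35% and 14.3% called lower. The 8 members called at E16 and the 8 at P14 (25.0% each) were thus near the background and are no result about the members. At 8wk 16 members (50.0%) were called. The median log2 fold change of the members was -0.01 at E16, -0.18 at P14 and 0.46 at 8wk, beside 0.02, 0.03 and -0.02 over all genes tested. All 4 ME libraries lay above all 4 controls for 7 members at E16, 6 at P14 and 6 at 8wk (14.5%, 14.1% and 12% of all genes), and below them for 4, 5 and 2 (12.8%, 12.4% and 9.04%). Without the 3 outlying libraries the calls were 6 higher and 2 lower at E16, 5 and 7 at P14, and 19 and 3 at 8wk, and the shares of all genes called in that fit were 19.1%, 25.7% and 34.9%. Without 8wk control replicate 1 alone they were 18 higher and 2 lower at 8wk (34.1% of all genes). Without P14 control replicate 3 or 4 the P14 count was 5 (15.9% and 14.9% of all genes). Ppm1d, Plk3 and Rrm2b were the members called at all 3 ages, and 10 members were called at none (Eda2r, Ercc5, Fdxr, Mdm2, Mdm4, Pidd1, Plk2, Polk, Triap1 and Xpc).

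**Figure D1:**
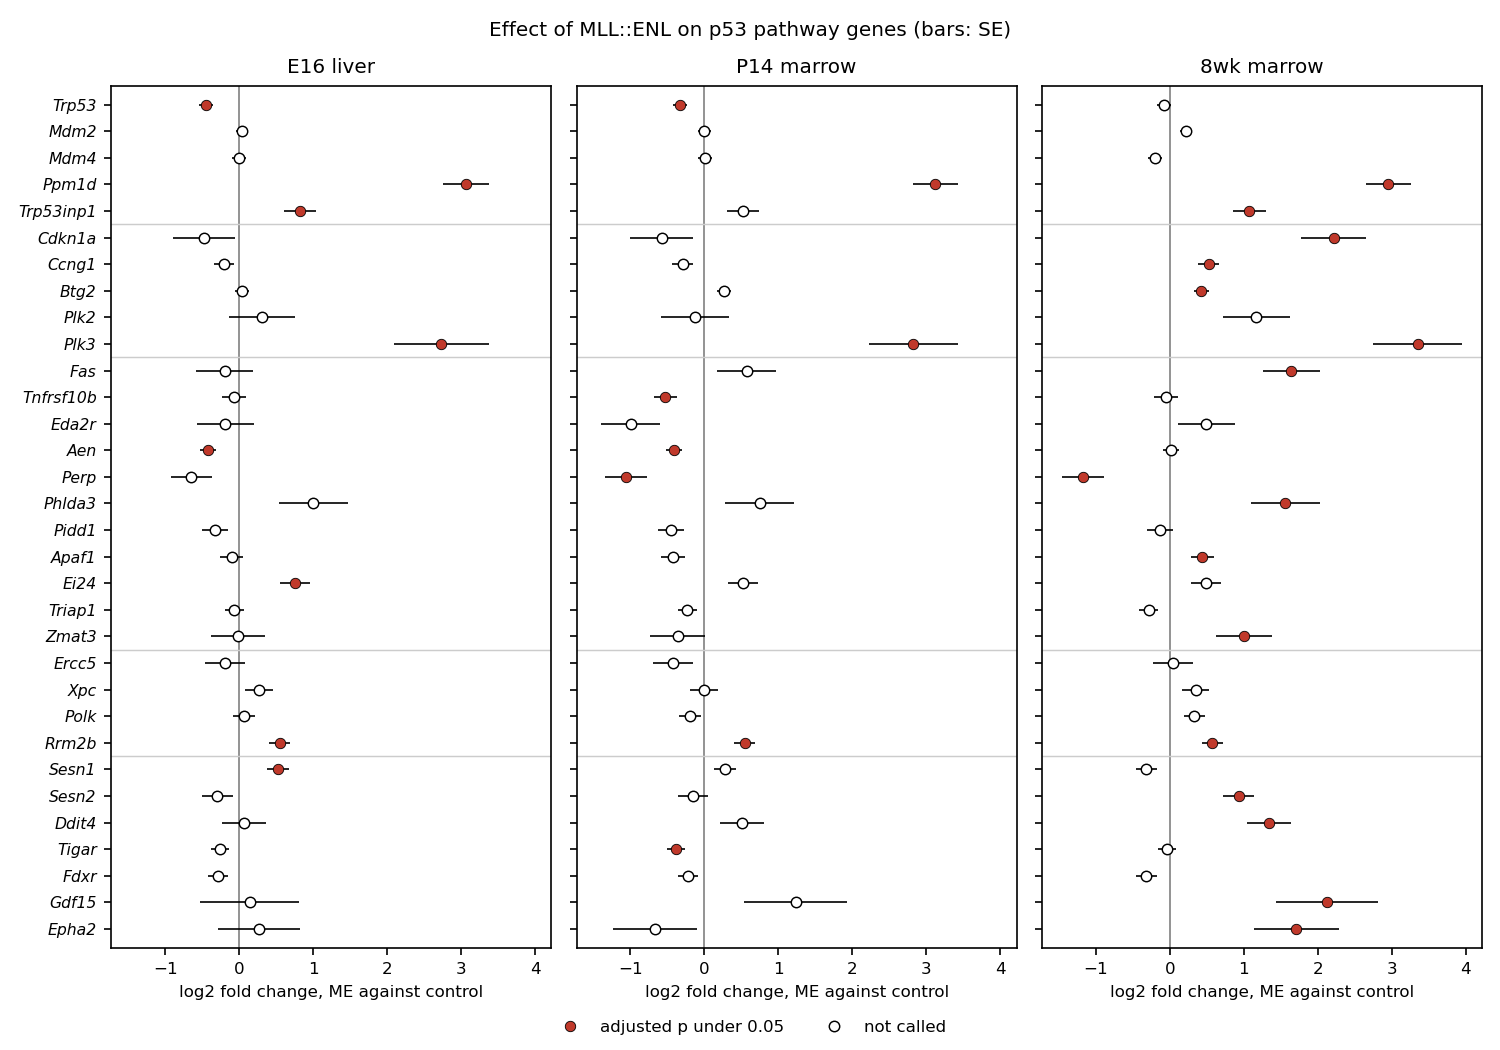
Log2 fold change of ME against control (x axis, bars SE) for the 32 genes (rows, grouped by role) at E16, P14 and 8wk; filled points had an edgeR adjusted p under 0.05. Ppm1d sits near 3 in every panel, while Cdkn1a lies at -0.47, -0.58 and 2.21.

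Per kilobase of exon, Trp53 was the most abundant member in the control groups at E16 and P14 (124 and 113 CPM per kb), and Ccng1 at 8wk (86.6 in control and 125 in ME). Sesn1 (40.6 to 80.3) came next. Plk3 was lowest in the E16 and P14 controls and near Epha2 in the 8wk controls (0.0758, 0.127 and 0.178 CPM per kb). Ppm1d went from 1.08, 1.20 and 1.30 CPM per kb in control to 9.04, 10.5 and 10.1 in ME.

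Of the 5 genes for p53 and its regulators, 2 rose and 1 fell at E16, 1 rose and 1 fell at P14 and 2 rose at 8wk. Over all genes tested 21.8%, 22% and 28.5% were called at these ages. With so few genes in a role, the counts by role here and below are descriptive only. Ppm1d (ENSMUSG00000020525, chromosome 11, 85311244 to 85347066) encodes WIP1, a phosphatase that dephosphorylates p53 and the kinases that activate it. Ppm1d stood at 4.73, 3.75, 2.24 and 2.94 CPM in E16 control and at 35.1, 30.6, 28.0 and 21.1 CPM in E16 ME. At P14, Ppm1d read 5.69, 3.47, 3.55 and 2.57 CPM in control and 36.4, 36.2, 37.3 and 22.8 CPM in ME. In 8wk marrow Ppm1d read 6.77, 4.19, 2.67 and 2.92 CPM in control and 31.4, 37.98, 36.8 and 22.4 CPM in ME. The lowest ME library was above the highest control library by more than 3-fold at each age, and ME replicate 4 was the lowest of its group at all 3 ages. Ppm1d had a log2 fold change of 3.07 ± 0.31 at E16 (edgeR adjusted p = 7.90e-07), 3.12 ± 0.31 at P14 (adjusted p = 5.00e-07) and 2.95 ± 0.31 at 8wk (adjusted p = 1.42e-06). The effects at 8wk and E16 differed by -0.11 ± 0.41 log2, with a 95% interval, by normal approximation, of -0.91 to 0.68.

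Genes within 500 kb of Ppm1d were looked at after its values had been seen. Appbp2 (chromosome 11, 85187262 to 85235130), rose by 1.05 ± 0.24 log2 at E16 (edgeR adjusted p = 0.00297), 0.98 ± 0.24 at P14 (adjusted p = 0.0047) and 0.76 ± 0.23 at 8wk (adjusted p = 0.0191). Bcas3 (chromosome 11, 85353167 to 85826058), read -0.03 ± 0.18, -0.25 ± 0.18 and 0.20 ± 0.18 log2 at E16, P14 and 8wk and was not called. Usp32 (chromosome 11, 84984442 to 85140161) was not called either, at 0.31 ± 0.17, -0.05 ± 0.17 and 0.34 ± 0.17 log2. Of the 13 neighbours tested 1 rose at E16, 1 rose and 2 fell at P14, and 2 rose and 3 fell at 8wk. Over all genes tested 21.8%, 22% and 28.5% were called at these ages, so such counts are no result about the neighbourhood. Besides Appbp2 the called neighbours were Car4, which rose at 8wk, Dhrs11 and Znhit3, which fell at P14 and 8wk, and Ggnbp2, which fell at 8wk. Car4, a carbonic anhydrase, was at 0 in all 12 control libraries and at 46.2, 41.3, 28.6 and 0.669 CPM in 8wk ME (edgeR adjusted p = 0.00373). Ggnbp2 was at -0.32 ± 0.07 at 8wk (adjusted p = 0.00207), Dhrs11 at -0.33 ± 0.11 and -0.28 ± 0.11 at P14 and 8wk, and Znhit3 at -0.59 ± 0.20 and -0.52 ± 0.20.

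Trp53 (ENSMUSG00000059552, chromosome 11, 69580359 to 69591873) encodes p53. Trp53 stood at 507, 521, 480.0 and 495 CPM in E16 control and at 348, 343, 408 and 367 CPM in E16 ME. At P14, Trp53 read 426, 398, 522 and 479 CPM in control and 386, 361, 361 and 345 CPM in ME. In 8wk marrow Trp53 read 322, 298, 259.7 and 367 CPM in control and 311, 280.5, 311 and 279.8 CPM in ME. All ME libraries were below all controls at E16 and P14, and the groups overlapped at 8wk. The log2 fold change of Trp53 was -0.45 ± 0.10 at E16 (edgeR adjusted p = 0.00182), -0.33 ± 0.10 at P14 (adjusted p = 0.0161) and -0.08 ± 0.10 at 8wk (adjusted p = 0.591). The P14 call was lost with library size alone in place of TMM (-0.25, adjusted p = 0.0589), without P14 control replicate 3 (-0.26, adjusted p = 0.0778) and without P14 control replicate 4 (-0.31, adjusted p = 0.0528). The effects at 8wk and E16 differed by 0.37 ± 0.14 log2 (edgeR adjusted p = 0.191), short of the threshold.

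Mdm2, the ubiquitin ligase that marks p53 for degradation and is itself a p53 target, was called at no age. Mdm2 stood at 106, 103, 124 and 106 CPM in E16 control and at 112, 116, 107 and 117 CPM in E16 ME. At P14, Mdm2 read 94.0, 105, 95.4 and 101 CPM in control and 99.6, 104, 102 and 88.7 CPM in ME. In 8wk marrow Mdm2 read 110.0, 104, 116 and 103 CPM in control and 115, 139, 133 and 116 CPM in ME. The groups overlapped at all 3 ages. Its log2 fold change was 0.04 ± 0.08 at E16 and -0.001 ± 0.08 at P14 (95% intervals -0.12 to 0.20 and -0.16 to 0.16). At 8wk it was 0.22 ± 0.08, just short of the threshold (edgeR adjusted p = 0.0515). With DESeq2 it was 0.25 and called (adjusted p = 0.0175), and without the 3 outlying libraries it was 0.26 ± 0.09 and called (adjusted p = 0.0352). Mdm2 was also called with RLE size factors, library size only, the 1 CPM filter and GC correction (0.22 to 0.28, edgeR adjusted p = 0.0113 to 0.0396). The same held without 8wk control replicate 3, ME replicate 1 or ME replicate 4 (0.25 to 0.29, adjusted p = 0.027 to 0.0346). It was not called at 8wk under the other alternatives.

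Mdm4, the partner of Mdm2 that blocks p53's transactivation domain, was called at no age. Mdm4 stood at 67.7, 70.2, 69.0 and 64.1 CPM in E16 control and at 59.2, 75.4, 73.2 and 62.0 CPM in E16 ME. At P14, Mdm4 read 62.2, 62.0, 52.7 and 56.0 CPM in control and 55.5, 64.8, 64.1 and 50.2 CPM in ME. In 8wk marrow Mdm4 read 55.9, 65.8, 59.0 and 56.3 CPM in control and 51.1, 50.6, 53.6 and 51.4 CPM in ME. The 8wk ME libraries lay below all 8wk controls, and the other groups overlapped. Its log2 fold changes were -0.01 ± 0.10, 0.01 ± 0.10 and -0.20 ± 0.10 (edgeR adjusted p = 0.976, 0.961 and 0.136).

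Trp53inp1 encodes a stress protein that promotes p53 phosphorylation and autophagy. Trp53inp1 stood at 37.9, 43.2, 59.5 and 53.9 CPM in E16 control and at 66.9, 78.2, 70.8 and 129 CPM in E16 ME. At P14, Trp53inp1 read 47.8, 48.8, 40.5 and 49.0 CPM in control and 63.2, 69.6, 75.5 and 58.6 CPM in ME. In 8wk marrow Trp53inp1 read 66.6, 31.8, 39.1 and 35.1 CPM in control and 68.4, 103, 89.3 and 103 CPM in ME. The ME libraries were above all controls at all 3 ages. At E16 ME replicate 4 was far above the other 3, and at 8wk control replicate 1 nearly reached the lowest ME library. Trp53inp1 had a log2 fold change of 0.83 ± 0.22 at E16 (edgeR adjusted p = 0.00905), 0.52 ± 0.22 at P14 (adjusted p = 0.0901, not called) and 1.08 ± 0.22 at 8wk (adjusted p = 0.00103). Without E16 ME replicate 4 the E16 value was 0.57 and not called (adjusted p = 0.0604), while without all 3 outlying libraries it was 0.57 ± 0.15 and called (adjusted p = 0.0109). At P14, with only that age's libraries and the replicate block, Trp53inp1 was called at 0.53 ± 0.12 (adjusted p = 0.0146).

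**Figure D2:**
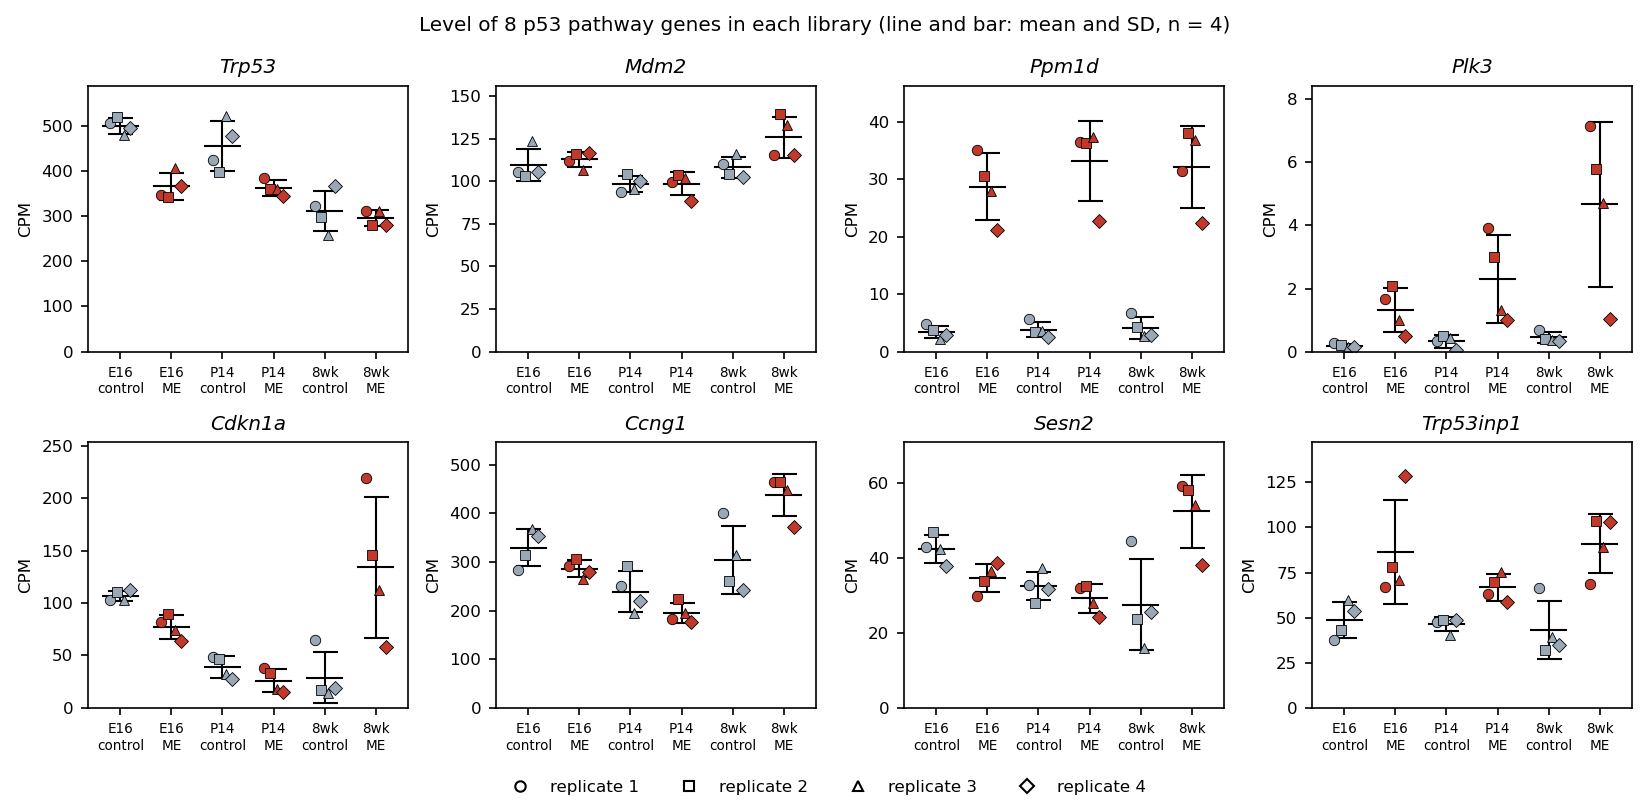
CPM (y axis, from 0) of Trp53, Mdm2, Ppm1d, Plk3, Cdkn1a, Ccng1, Sesn2 and Trp53inp1 in each library of the 6 groups, with symbols for replicates 1 to 4, lines for means and bars for SD (n = 4). Ppm1d separates ME from control at every age, and Cdkn1a reaches 219.6 CPM in an 8wk ME library while 8wk control replicate 1 stands at 65.1 CPM above the other controls.

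The 5 cell cycle genes held 1 call at E16 and 1 at P14, Plk3 in both, and 4 at 8wk, all higher. Calls made up 21.8%, 22% and 28.5% of all genes at these ages. Cdkn1a (ENSMUSG00000023067, chromosome 17, 29090976 to 29100727) is the best-known p53 target and encodes an inhibitor of cyclin-dependent kinases. Cdkn1a stood at 103, 110.2, 103 and 112 CPM in E16 control and at 81.8, 89.8, 74.0 and 63.3 CPM in E16 ME. At P14, Cdkn1a read 48.8, 46.3, 31.96 and 27.8 CPM in control and 37.7, 33.0, 17.8 and 15.3 CPM in ME. In 8wk marrow Cdkn1a read 65.1, 16.9, 14.4 and 18.7 CPM in control and 219.6, 146, 112 and 58.2 CPM in ME. At E16 the ME libraries lay below all controls. At 8wk the ME libraries spread almost 4-fold, and the lowest of them, replicate 4, fell below control replicate 1, so the groups overlapped. Mean levels at 8wk were 28.8 ± 24.3 CPM in control and 134 ± 67.6 CPM in ME. Cdkn1a had a log2 fold change of 2.21 ± 0.44 at 8wk (edgeR adjusted p = 9.81e-04), -0.47 ± 0.42 at E16 (adjusted p = 0.462) and -0.58 ± 0.42 at P14 (adjusted p = 0.363).

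With the 3 outlying libraries left out, the Cdkn1a effect at 8wk was 3.25 ± 0.32 log2 (edgeR adjusted p = 7.17e-07), and without 8wk control replicate 1 alone it was 3.00 ± 0.37 (adjusted p = 7.34e-06). At E16 a fit of the E16 libraries alone called Cdkn1a lower, at -0.46 (adjusted p = 0.0164). At P14 Cdkn1a was called lower, at -0.63 ± 0.13 (adjusted p = 0.00848), with only the P14 libraries and the replicate block.

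Ccng1 (ENSMUSG00000020326, chromosome 11, 40748552 to 40755311) encodes cyclin G1, a p53 target that recruits a phosphatase to Mdm2. Ccng1 stood at 283, 314, 368 and 353 CPM in E16 control and at 291, 307, 266 and 280.0 CPM in E16 ME. At P14, Ccng1 read 251, 292, 194 and 219 CPM in control and 184, 224, 195 and 177 CPM in ME. In 8wk marrow Ccng1 read 400.3, 260.4, 314 and 242 CPM in control and 465, 464, 449 and 373 CPM in ME. At 8wk control replicate 1 lay above the lowest ME library, replicate 4, and the other 3 controls lay below every ME library. Ccng1 had a log2 fold change of 0.52 ± 0.14 at 8wk (edgeR adjusted p = 0.00758) and 0.75 ± 0.14 without the 3 outlying libraries (adjusted p = 2.36e-04). At E16 and P14 it was -0.20 ± 0.14 and -0.30 ± 0.14 (adjusted p = 0.317 and 0.137).

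Plk3 encodes a polo-like kinase that responds to stress. Plk3 stood at 0.262, 0.215, 0.153 and 0.138 CPM in E16 control and at 1.66, 2.07, 1.00 and 0.493 CPM in E16 ME. At P14, Plk3 read 0.322, 0.493, 0.422 and 0.0506 CPM in control and 3.93, 3.01, 1.31 and 0.990 CPM in ME. In 8wk marrow Plk3 read 0.698, 0.393, 0.367 and 0.343 CPM in control and 7.15, 5.78, 4.72 and 1.02 CPM in ME. Every ME library was above every control at each age, yet the ME libraries of an age differed among themselves by about 4- to 7-fold, with replicate 4 lowest each time. These levels rest on few counts, 5 to 15 per library in the E16 controls and 3 to 33 in the P14 controls. Plk3 had a log2 fold change of 2.73 ± 0.64 at E16 (edgeR adjusted p = 0.004), 2.82 ± 0.60 at P14 (adjusted p = 0.00169) and 3.35 ± 0.60 at 8wk (adjusted p = 3.46e-04). Exons of Plk3 share 84 bases with Tctex1d4 on the opposite strand. Exons of Cdkn1a (273 bases, AC167363.2), Ei24 (324, Gm26787), Rrm2b (734, Gm49085) and Tigar (122, Platr31) also overlap a gene on the opposite strand. The strand setting of the counting was not stated, so reads of such partners cannot be told apart.

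Btg2 encodes an antiproliferative protein that promotes mRNA deadenylation. Btg2 stood at 60.8, 57.0, 53.4 and 51.9 CPM in E16 control and at 54.9, 59.8, 57.0 and 57.9 CPM in E16 ME. At P14, Btg2 read 54.5, 47.5, 44.6 and 52.2 CPM in control and 62.1, 64.2, 58.2 and 54.5 CPM in ME. In 8wk marrow Btg2 read 38.4, 32.9, 30.4 and 41.2 CPM in control and 48.7, 43.9, 50.7 and 48.8 CPM in ME. The 8wk ME libraries were above all 8wk controls, by a modest margin. Btg2 had a log2 fold change of 0.43 ± 0.10 at 8wk (edgeR adjusted p = 0.00274), 0.27 ± 0.10 at P14 (adjusted p = 0.0547, and 0.26 with an adjusted p of 0.048 in DESeq2) and 0.04 ± 0.10 at E16. At P14 it was also called with library size only, the 1 CPM filter, GC correction and without ME replicate 4 (0.28 to 0.36, edgeR adjusted p = 0.0132 to 0.0451). The other alternatives did not call it at P14. Plk2, a kinase of centriole duplication, was not called at 8wk with all libraries (1.17 ± 0.45, edgeR adjusted p = 0.0581) and was called without the 3 outlying libraries (2.39 ± 0.32, adjusted p = 1.28e-05).

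Of the 11 genes of death receptors and apoptosis, 1 rose and 1 fell at E16, 3 fell at P14, and 4 rose and 1 fell at 8wk. The E16 and P14 counts were near the 21.8% and 22% of all genes called, and the 8wk share of all genes was 28.5%. Fas, the receptor that triggers death on binding Fas ligand, was low throughout. Fas stood at 2.93, 2.52, 2.94 and 2.86 CPM in E16 control and at 3.02, 2.49, 2.87 and 1.46 CPM in E16 ME. At P14, Fas read 0.688, 0.837, 0.647 and 0.861 CPM in control and 0.881, 1.39, 1.21 and 1.04 CPM in ME. In 8wk marrow Fas read 2.34, 2.44, 2.51 and 1.80 CPM in control and 14.5, 6.76, 5.73 and 1.46 CPM in ME. In 8wk ME replicate 1 it was about 6-fold above the highest control, while replicate 4 was below all of them. At P14 all ME libraries were above all controls, and at E16 the groups overlapped. Fas had a log2 fold change of 1.64 ± 0.39 at 8wk (edgeR adjusted p = 0.00328), and the call was lost in a fit of the 8wk libraries alone (1.68, adjusted p = 0.0592). Without the 3 outlying libraries it was 2.00 ± 0.28 (adjusted p = 1.88e-05). At E16 and P14 it was -0.20 ± 0.38 and 0.57 ± 0.40 (adjusted p = 0.765 and 0.341).

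Perp, a membrane protein of cell junctions linked to p53-dependent apoptosis, was the member that fell at 8wk. Perp stood at 10.7, 10.3, 8.00 and 7.54 CPM in E16 control and at 8.19, 6.42, 6.47 and 2.35 CPM in E16 ME. At P14, Perp read 11.3, 11.9, 8.24 and 5.32 CPM in control and 4.97, 4.91, 3.75 and 4.05 CPM in ME. In 8wk marrow Perp read 12.8, 11.0, 13.8 and 10.0 CPM in control and 3.81, 5.95, 4.80 and 6.56 CPM in ME. The P14 and 8wk ME libraries lay below all controls of their age, and at E16 only replicate 1 reached into the control range. Perp had a log2 fold change of -0.64 ± 0.28 at E16 (edgeR adjusted p = 0.109), -1.06 ± 0.29 at P14 (adjusted p = 0.01) and -1.17 ± 0.29 at 8wk (adjusted p = 0.0041).

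Aen, a nuclease that acts in apoptosis, fell at E16 and P14. Aen stood at 68.6, 73.8, 69.3 and 71.8 CPM in E16 control and at 47.4, 52.7, 59.0 and 52.5 CPM in E16 ME. At P14, Aen read 51.6, 56.6, 77.5 and 63.7 CPM in control and 51.8, 45.2, 50.5 and 40.1 CPM in ME. In 8wk marrow Aen read 54.4, 50.9, 51.5 and 56.2 CPM in control and 53.6, 53.2, 59.8 and 49.0 CPM in ME. The groups were apart at E16, and at P14 control replicate 1 lay inside the ME range. Aen had a log2 fold change of -0.42 ± 0.11 at E16 (edgeR adjusted p = 0.00844), -0.41 ± 0.11 at P14 (adjusted p = 0.00996) and 0.02 ± 0.11 at 8wk (adjusted p = 0.927). The P14 call was lost without P14 control replicate 3 (-0.29, adjusted p = 0.0626), with the P14 libraries alone (-0.40, adjusted p = 0.0627) and with those libraries and the replicate block (-0.39 ± 0.13, adjusted p = 0.0563).

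Phlda3, which competes with Akt for membrane lipids and so dampens survival signalling, was higher in ME at every age on average and called at 8wk. Phlda3 stood at 13.7, 14.6, 9.81 and 5.72 CPM in E16 control and at 21.7, 21.9, 18.1 and 26.1 CPM in E16 ME. At P14, Phlda3 read 19.5, 12.9, 10.8 and 3.46 CPM in control and 23.0, 20.9, 16.8 and 17.4 CPM in ME. In 8wk marrow Phlda3 read 24.6, 7.05, 4.02 and 6.33 CPM in control and 23.5, 40.5, 33.6 and 26.7 CPM in ME. At E16 all ME libraries were above the controls. At 8wk control replicate 1 was above ME replicate 1 and several-fold above the other controls. Phlda3 had a log2 fold change of 1.00 ± 0.47 at E16 (edgeR adjusted p = 0.132), 0.74 ± 0.46 at P14 (adjusted p = 0.274) and 1.56 ± 0.47 at 8wk (adjusted p = 0.017). The 8wk call was lost without control replicate 2, 3 or 4 or ME replicate 2 (1.31 to 1.41, adjusted p = 0.0503 to 0.0657), with no filter (1.55, adjusted p = 0.0554) and with the 8wk libraries alone (1.58, adjusted p = 0.0735). When the 3 outlying libraries were left out, it was 2.49 ± 0.44 (adjusted p = 2.65e-04).

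Apaf1, the core of the apoptosome, and Zmat3, an RNA-binding splicing regulator, were both called higher at 8wk, close to the threshold. Apaf1 stood at 96.6, 104, 102 and 96.8 CPM in E16 control and at 74.7, 97.1, 99.0 and 101 CPM in E16 ME. At P14, Apaf1 read 97.6, 90.5, 81.1 and 86.6 CPM in control and 70.1, 71.4, 72.0 and 51.1 CPM in ME. In 8wk marrow Apaf1 read 98.7, 69.4, 45.01 and 62.8 CPM in control and 88.1, 98.7, 96.8 and 90.6 CPM in ME. The groups overlapped at E16 and at 8wk, where control replicate 1 equalled the highest ME library, and at P14 the ME libraries were below all controls. Apaf1 was at 0.44 ± 0.16 log2 at 8wk (edgeR adjusted p = 0.0424), -0.43 ± 0.16 at P14 (adjusted p = 0.0572) and -0.10 ± 0.16 at E16. With the P14 libraries alone and the replicate block Apaf1 was called lower at P14 (-0.43 ± 0.12, adjusted p = 0.0263), as it was with those libraries and no block (-0.42, adjusted p = 0.0341) and in the fit without the 3 outlying libraries (-0.43, adjusted p = 0.0182).

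Zmat3 stood at 8.63, 10.3, 8.89 and 10.5 CPM in E16 control and at 6.29, 7.96, 7.25 and 16.4 CPM in E16 ME. At P14, Zmat3 read 9.63, 9.63, 9.26 and 6.89 CPM in control and 6.59, 5.76, 7.73 and 7.51 CPM in ME. In 8wk marrow Zmat3 read 12.0, 2.57, 2.72 and 3.07 CPM in control and 8.07, 11.9, 11.3 and 9.72 CPM in ME. For Zmat3 8wk control replicate 1 was the highest of all 8wk libraries while the other 3 controls were the lowest, and at E16 ME replicate 4 stood above every other library of that age. Zmat3 was at 1.00 ± 0.37 log2 at 8wk (edgeR adjusted p = 0.0482), -0.02 ± 0.37 at E16 and -0.36 ± 0.37 at P14. Without the 3 outlying libraries the 8wk values were 1.90 ± 0.19 for Zmat3 (adjusted p = 4.59e-07) and 0.68 ± 0.15 for Apaf1 (adjusted p = 0.00141). Leaving out 1 of 8wk control replicates 2 to 4 or ME replicates 2 to 4 ended the call for either gene, as did leaving out ME replicate 1 for Apaf1. The values then lay between 0.78 and 1.03 for Zmat3 (adjusted p up to 0.17) and between 0.31 and 0.47 for Apaf1 (adjusted p up to 0.142). Both calls were also lost with the level of Y-linked genes as a covariate (0.98, adjusted p = 0.0558 for Zmat3 and 0.41, adjusted p = 0.0667 for Apaf1). The same held with library size only (1.01, adjusted p = 0.0666 and 0.47, adjusted p = 0.0519), with no filter (0.99, adjusted p = 0.123 and 0.43, adjusted p = 0.0646) and with the 8wk libraries alone (1.03, adjusted p = 0.176 and 0.47, adjusted p = 0.146).

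Ei24, an endoplasmic reticulum protein of autophagy induced by p53, rose at E16. Ei24 stood at 157, 135, 113 and 84.2 CPM in E16 control and at 221, 211, 199.9 and 194 CPM in E16 ME. At P14, Ei24 read 171, 143, 95.3 and 84.8 CPM in control and 173, 193, 169.6 and 171 CPM in ME. In 8wk marrow Ei24 read 208, 151, 125 and 108 CPM in control and 203, 216, 218 and 191 CPM in ME. The E16 ME libraries were above all controls, and at P14 and 8wk the control libraries spread about 2-fold and overlapped the tight ME groups. Ei24 had a log2 fold change of 0.76 ± 0.20 at E16 (edgeR adjusted p = 0.0102), 0.52 ± 0.20 at P14 (adjusted p = 0.0724) and 0.48 ± 0.20 at 8wk (adjusted p = 0.0782). Ei24 was called at P14 with the replicate block (0.57, adjusted p = 0.00749; 0.58 ± 0.16, adjusted p = 0.0325 with the P14 libraries alone) and at 8wk without the 3 outlying libraries (0.73 ± 0.22, adjusted p = 0.0145).

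Tnfrsf10b, the mouse TRAIL receptor, fell at P14. Tnfrsf10b stood at 4.57, 5.57, 4.25 and 4.76 CPM in E16 control and at 3.92, 5.28, 4.09 and 4.86 CPM in E16 ME. At P14, Tnfrsf10b read 8.10, 7.54, 6.59 and 8.59 CPM in control and 4.37, 6.65, 6.00 and 4.38 CPM in ME. In 8wk marrow Tnfrsf10b read 5.05, 5.58, 6.60 and 6.59 CPM in control and 6.20, 5.12, 5.83 and 5.85 CPM in ME. At P14 control replicate 3 lay just inside the ME range, and the other ages overlapped throughout. Tnfrsf10b had a log2 fold change of -0.53 ± 0.16 at P14 (edgeR adjusted p = 0.0219), -0.08 ± 0.16 at E16 and -0.05 ± 0.16 at 8wk. The P14 call was lost without control replicate 4, ME replicate 1 or ME replicate 4 (-0.47 to -0.44, adjusted p = 0.0765 to 0.0785), and with the P14 libraries and the replicate block (-0.53 ± 0.20, adjusted p = 0.0809). It was also lost with no filter (-0.56, adjusted p = 0.0666), with the P14 libraries alone (-0.52, adjusted p = 0.0663) and with GC correction (-0.43, adjusted p = 0.0504).

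The other members of this role were called at no age. Eda2r, the receptor of ectodysplasin A2, fell short at P14 (-0.996 ± 0.40, edgeR adjusted p = 0.0781), where the ME libraries lay below all controls. When the 3 outlying libraries were left out, it was called at P14 (-0.996 ± 0.33) and at 8wk (1.11 ± 0.38), with opposite signs. Pidd1, the scaffold of the PIDDosome, was at -0.32 ± 0.17, -0.45 ± 0.17 and -0.14 ± 0.18 log2. Triap1, which inhibits apoptosis, was at -0.06 ± 0.13, -0.23 ± 0.13 and -0.29 ± 0.13.

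Of the 4 genes of DNA repair and nucleotide supply, Rrm2b was called at each age. It encodes the p53-induced small subunit of ribonucleotide reductase, which supplies nucleotides for repair. Rrm2b stood at 9.42, 9.47, 9.92 and 12.4 CPM in E16 control and at 15.0, 16.1, 14.0 and 15.1 CPM in E16 ME. At P14, Rrm2b read 8.10, 11.4, 9.02 and 9.18 CPM in control and 12.5, 13.8, 14.1 and 14.4 CPM in ME. In 8wk marrow Rrm2b read 14.9, 12.4, 16.3 and 10.0 CPM in control and 22.1, 17.8, 19.4 and 20.7 CPM in ME. Every ME library was above every control at each age. Rrm2b had a log2 fold change of 0.55 ± 0.15 at E16 (edgeR adjusted p = 0.00939), 0.54 ± 0.15 at P14 (adjusted p = 0.00946) and 0.58 ± 0.14 at 8wk (adjusted p = 0.00522). At P14 the call was lost without control replicate 1 (0.43, adjusted p = 0.0551). Xpc and Ercc5, of nucleotide excision repair, and Polk, a translesion polymerase, were not called, with values between -0.42 ± 0.27 (Ercc5 at P14) and 0.35 ± 0.19 (Xpc at 8wk).

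Of the 7 genes of metabolism and growth signalling, 1 rose at E16 (Sesn1), 1 fell at P14 (Tigar) and 4 rose at 8wk (Sesn2, Ddit4, Gdf15 and Epha2). Beside these counts stand 21.8%, 22% and 28.5% of all genes called at the 3 ages. The sestrins restrain the growth kinase complex mTORC1 when amino acids or redox balance fail. Sesn2 stood at 42.9, 46.8, 42.3 and 37.7 CPM in E16 control and at 29.7, 33.7, 36.5 and 38.5 CPM in E16 ME. At P14, Sesn2 read 32.7, 28.0, 37.1 and 31.7 CPM in control and 32.02, 32.4, 27.9 and 24.2 CPM in ME. In 8wk marrow Sesn2 read 44.5, 23.8, 16.0 and 25.6 CPM in control and 59.0, 58.0, 54.2 and 38.2 CPM in ME. At 8wk only control replicate 1 reached the ME range, above ME replicate 4. The log2 fold change of Sesn2 was 0.93 ± 0.21 at 8wk (edgeR adjusted p = 0.00209), -0.29 ± 0.21 at E16 (adjusted p = 0.33) and -0.15 ± 0.21 at P14 (adjusted p = 0.651). With the 3 outlying libraries left out, the 8wk effect was 1.39 ± 0.16 (adjusted p = 2.33e-06).

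Sesn1 stood at 144, 160.4, 178 and 164 CPM in E16 control and at 195, 197, 224 and 317 CPM in E16 ME. At P14, Sesn1 read 247, 244, 261 and 305 CPM in control and 319, 325, 327 and 307 CPM in ME. In 8wk marrow Sesn1 read 219.7, 222, 276 and 246 CPM in control and 144, 191, 188 and 251 CPM in ME. The ME libraries were above all controls at E16 and P14. At 8wk 3 of them were below all controls and replicate 4 was inside the control range. The log2 fold change of Sesn1 was 0.53 ± 0.15 at E16 (edgeR adjusted p = 0.0124), 0.27 ± 0.15 at P14 (adjusted p = 0.192) and -0.32 ± 0.15 at 8wk (adjusted p = 0.111). Without E16 ME replicate 4 the E16 value was 0.34 and not called (adjusted p = 0.0832), and without all 3 outlying libraries it was 0.34 ± 0.11 and called (adjusted p = 0.0272). At P14 Sesn1 was called in a fit of the P14 libraries alone (0.28, adjusted p = 0.0358) and in the fit without those 3 libraries of other ages (0.27, adjusted p = 0.0456). Without 8wk ME replicate 4 Sesn1 was called lower at 8wk (-0.47, adjusted p = 0.0184), as it was without all 3 outlying libraries (-0.51 ± 0.11, adjusted p = 0.00164).

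Ddit4, also known as REDD1, another brake on mTORC1, rose at 8wk. Ddit4 stood at 7.17, 7.23, 6.65 and 7.87 CPM in E16 control and at 6.80, 9.15, 7.20 and 7.08 CPM in E16 ME. At P14, Ddit4 read 7.95, 6.42, 5.06 and 3.73 CPM in control and 13.3, 9.17, 5.44 and 4.95 CPM in ME. In 8wk marrow Ddit4 read 10.5, 5.74, 5.80 and 6.65 CPM in control and 26.2, 21.2, 11.6 and 13.8 CPM in ME. At 8wk all ME libraries were above all controls, and at P14 ME replicates 1 and 2 were above the controls while 3 and 4 were among them. Ddit4 had a log2 fold change of 1.34 ± 0.30 at 8wk (edgeR adjusted p = 0.00215), 0.51 ± 0.30 at P14 (adjusted p = 0.24) and 0.06 ± 0.30 at E16.

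Gdf15, a secreted stress cytokine, and Epha2, an ephrin receptor, were among the least abundant members. Gdf15 stood at 0.855, 0.676, 1.20 and 1.62 CPM in E16 control and at 1.61, 1.85, 1.11 and 0.224 CPM in E16 ME. At P14, Gdf15 read 0.602, 0.329, 0.557 and 0.169 CPM in control and 2.08, 0.848, 0.437 and 0.507 CPM in ME. In 8wk marrow Gdf15 read 1.46, 0.341, 0.262 and 0.193 CPM in control and 4.94, 2.77, 1.62 and 0.836 CPM in ME. In 8wk ME, replicate 4 was below control replicate 1 and the other ME libraries were above all controls. Gdf15 was at 2.12 ± 0.69 log2 at 8wk (edgeR adjusted p = 0.0249), 1.23 ± 0.70 at P14 (adjusted p = 0.223) and 0.14 ± 0.67 at E16. Epha2 stood at 2.18, 2.68, 2.66 and 2.86 CPM in E16 control and at 1.94, 2.83, 4.73 and 2.96 CPM in E16 ME. At P14, Epha2 read 2.21, 2.24, 1.79 and 1.05 CPM in control and 1.96, 1.34, 0.596 and 0.691 CPM in ME. In 8wk marrow Epha2 read 2.50, 0.315, 0.209 and 0.343 CPM in control and 1.35, 4.01, 2.92 and 3.07 CPM in ME. For Epha2 8wk control replicate 1 exceeded the other controls by more than 7-fold and lay above ME replicate 1.

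Epha2 was at 1.71 ± 0.57 log2 at 8wk (edgeR adjusted p = 0.0293), -0.67 ± 0.56 at P14 and 0.27 ± 0.55 at E16. With the 3 outlying libraries left out, the 8wk effects were 3.55 ± 0.60 for Gdf15 and 3.26 ± 0.50 for Epha2 (adjusted p = 1.36e-04 and 4.96e-05). With all libraries but 1 of 8wk control replicates 2 to 4 the call was lost for either gene, and likewise without ME replicate 1 for Gdf15 and without ME replicate 2, 3 or 4 for Epha2. The values then lay between 1.58 and 1.95 for Gdf15 (adjusted p = 0.074 to 0.101) and between 1.40 and 1.70 for Epha2 (adjusted p = 0.0501 to 0.0957). In the 8wk libraries alone both missed the threshold (adjusted p = 0.0751 and 0.146), as they did with no filter (0.0711 and 0.0844).

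Tigar, a fructose bisphosphatase that turns sugar away from glycolysis, fell at P14. Tigar stood at 20.1, 19.7, 19.4 and 16.7 CPM in E16 control and at 16.0, 16.8, 15.2 and 15.3 CPM in E16 ME. At P14, Tigar read 14.4, 15.7, 14.8 and 14.9 CPM in control and 11.6, 11.4, 12.1 and 10.8 CPM in ME. In 8wk marrow Tigar read 14.1, 14.4, 18.2 and 15.1 CPM in control and 17.0, 13.5, 17.4 and 12.3 CPM in ME. The P14 ME libraries were all below the controls, and the other ages overlapped. Tigar had a log2 fold change of -0.38 ± 0.12 at P14 (edgeR adjusted p = 0.0267), -0.26 ± 0.12 at E16 (adjusted p = 0.126) and -0.03 ± 0.12 at 8wk. The P14 call was lost without any 1 of control replicates 2, 3 and 4 and ME replicates 2 and 4 (-0.39 to -0.35, adjusted p = 0.0512 to 0.0703), with library size alone (-0.30, adjusted p = 0.064), with no filter (-0.41, adjusted p = 0.0916), with GC correction (-0.30, adjusted p = 0.0835) and with the P14 libraries and the replicate block (-0.37 ± 0.14, adjusted p = 0.0734). Fdxr, ferredoxin reductase of mitochondria, was not called, at -0.29 ± 0.14, -0.22 ± 0.14 and -0.32 ± 0.14 log2.

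With the P14 libraries alone and the replicate block, 5 members were higher and 4 lower at P14 (9 of 32, near the 25.6% of all genes called in that fit). Apaf1, Cdkn1a, Ei24 and Trp53inp1 were gained, and Aen, Tigar and Tnfrsf10b were lost. With the block and all 24 libraries 9 members were called at P14 (22.9% of all genes), Ei24 being added.

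The E16 and 8wk calls not yet given without the 3 outlying libraries were all kept. Leaving these libraries out widens the distance between the groups on the first component, so the values below are no independent check of the calls. At E16 these were Trp53 (-0.45 ± 0.11, adjusted p = 0.00509), Aen (-0.42 ± 0.12, adjusted p = 0.0203), Ei24 (0.78 ± 0.20, adjusted p = 0.0102) and Rrm2b (0.54 ± 0.16, adjusted p = 0.0197), with Ppm1d at 3.19 ± 0.26 and Plk3 at 3.00 ± 0.53 (edgeR). At 8wk they were Perp (-1.26 ± 0.26, adjusted p = 7.25e-04), Btg2 (0.45 ± 0.12, adjusted p = 0.0045), Rrm2b (0.61 ± 0.17, adjusted p = 0.00849), Trp53inp1 (1.30 ± 0.16, adjusted p = 6.42e-06) and Ddit4 (1.70 ± 0.34, adjusted p = 5.98e-04), with Ppm1d at 3.44 ± 0.30 and Plk3 at 3.99 ± 0.56 (edgeR).

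At 8wk control replicate 1 was the highest of the 4 controls for 18 of the 32 members, while ME replicates 4 and 1 were the lowest of the 4 ME libraries for 13 and 12. At P14 ME replicate 4 was the lowest of its group for 21 members, and at E16 replicate 1 was the lowest for 15 in control and for 15 in ME. Myeloid markers moved alike in 8wk control replicate 1 and 8wk ME replicate 4. They did not in 8wk ME replicate 1, the highest ME library of that age in both myeloid sums. The summed level of the 10 monocyte and macrophage markers was 119, 22.3, 17.4 and 25.0 CPM in 8wk control and 335, 238, 255 and 48.8 CPM in 8wk ME. That of the 8 neutrophil markers was 831, 32.8, 17.8 and 21.8 CPM in control and 1407, 1258, 871 and 39.0 CPM in ME. In both lists control replicate 1 stood above the other controls and ME replicate 4 below the other ME libraries, as they did for Cdkn1a. Other lists differed. Control replicate 1 was also highest for megakaryocyte (647 CPM, others 302 to 391), mast cell and basophil (254, others 139 to 179) and erythroid markers (140, others 72.3 to 109). In 8wk ME, replicate 4 was the highest library for megakaryocyte (301 CPM) and mast cell and basophil markers (179), and the lowest for erythroid markers (51.1).

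Of the monocyte markers 7 of 10 were called higher in ME at 8wk, and of the neutrophil markers 0 of 8 were called (median 1.64 log2). Every marker of both lists had counts in both 8wk groups. At E16 the monocyte sum was 177 to 252 CPM in control and 65.2 to 326 in ME, and the neutrophil sum 1084 to 5674 and 42.0 to 1033, with ME replicate 4 lowest in both. E16 control replicate 1 was the highest control in both sums (252 and 5674 CPM). Its Cdkn1a level was 103 CPM, beside 103 to 112 CPM in the other E16 controls. At P14 the monocyte sum was 15.1 to 29.3 CPM in control, where C1qa and C1qb were at 0, and 18.8 to 49.7 in ME, and the neutrophil sum 6.97 to 45.3 and 4.47 to 11.8. B-lineage markers summed to 39.9 to 44.1 CPM in P14 control and 38.4 to 327 in P14 ME, where 6 of 8 rose. In 8wk marrow the summed level of 4 Y-linked genes was 237, 4.88, 2.15 and 0.343 CPM in control and 269, 18.8, 216 and 5.68 CPM in ME. With that level as a covariate the 8 calls at E16 and the 8 at P14 were kept, and 14 of the 16 at 8wk, all but Apaf1 and Zmat3. The part of cell makeup in the results was not tested. Without the 3 outlying libraries the neutrophil sums at 8wk were 17.8 to 32.8 CPM in control and 871 to 1407 CPM in ME, so that the fits without them compare groups further apart in this marker list.

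**Figure D3:**
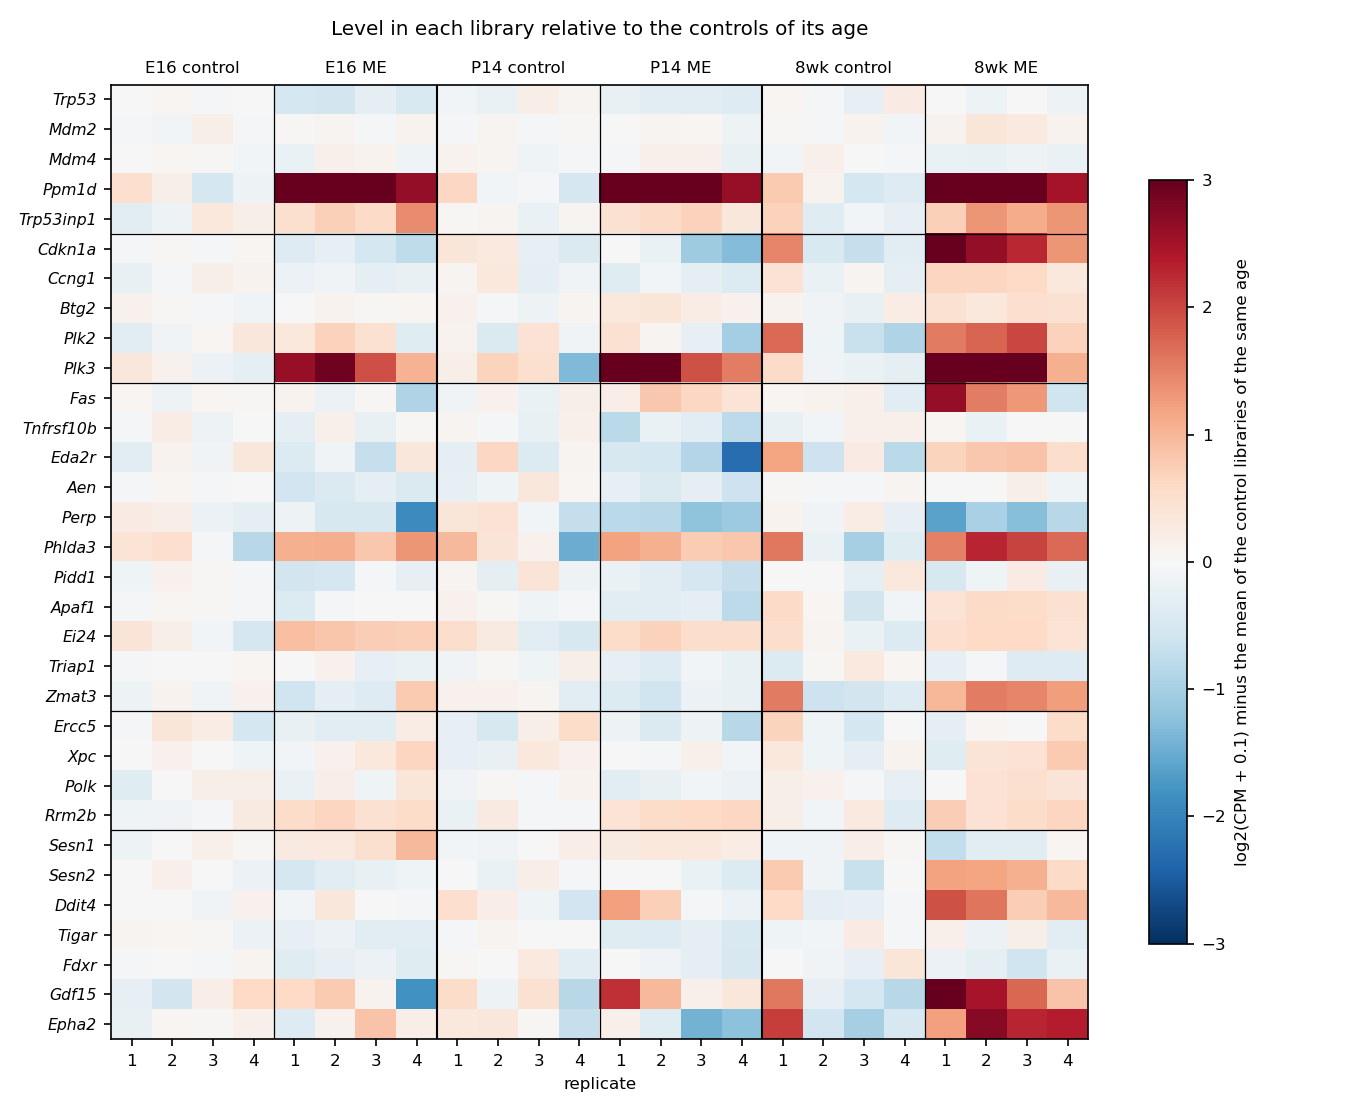
Log2(CPM + 0.1) of each member (rows, grouped by role) in each of the 24 libraries (columns), minus the mean of the controls of the same age; red is higher, blue lower, and the colour scale ends at -3 and 3. Ppm1d and Plk3 are red in all ME libraries, and 8wk control replicate 1 is red for Cdkn1a, Phlda3, Zmat3, Plk2, Gdf15 and Epha2.

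The differences between ME effects asked whether the response depended on age; the effect of each age uses its own controls, and the 8wk effect enters the last 2 of the 3 differences. The effect at 8wk exceeded that at E16 for Cdkn1a and for Sesn2. Cdkn1a differed by 2.69 ± 0.60 log2 (edgeR adjusted p = 0.0363) and Sesn2 by 1.22 ± 0.29 (adjusted p = 0.0448). These 2 calls among 32 members stand beside 0.85% of all genes tested called. The difference was positive for 25 of the 32 members, and 11 had an unadjusted p under 0.05. Shares of all genes for those 2 counts are not given here, so 0.85% is not their background. Just short of the threshold were Sesn1 (-0.84 ± 0.21, adjusted p = 0.0516) and Ccng1 (0.73 ± 0.20, adjusted p = 0.0721). The median difference was 0.32 over the members and -0.07 over all genes.

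Without the 3 outlying libraries 11 members had a higher and 1 a lower effect at 8wk than at E16 (12 of 32, with 7.07% of all genes called in that fit). They were Cdkn1a (3.64 ± 0.42, edgeR adjusted p = 8.24e-05), Sesn2 (1.74 ± 0.22, adjusted p = 1.19e-04), Apaf1, Ccng1, Ddit4, Epha2, Fas, Gdf15, Plk2, Trp53inp1 and Zmat3, with Sesn1 lower (-0.85 ± 0.16, adjusted p = 0.00225). Without 8wk control replicate 1 alone 8 were higher and 1 lower (4.64% of all genes). The calls of Cdkn1a and Sesn2 were both lost when any of 13 of the 16 libraries of E16 and 8wk was left out, and were kept without 8wk control replicate 1, 8wk ME replicate 4 or E16 control replicate 4. Over the 16, the Cdkn1a difference lay between 2.34 and 3.48 (adjusted p up to 0.101) and that of Sesn2 between 1.05 and 1.56 (adjusted p up to 0.108). With the level of Y-linked genes as a covariate the values were 2.58 (adjusted p = 0.0982) and 1.11 (adjusted p = 0.131), and with the E16 and 8wk libraries alone 2.69 (adjusted p = 0.0938) and 1.24 (adjusted p = 0.126).

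Between 8wk and P14 edgeR called 0 members and 0.301% of all genes. Of the members 11 had an unadjusted p under 0.05, a count whose share over all genes is not given here. DESeq2 called 4 members (Apaf1, Ccng1, Cdkn1a and Sesn2) and 1.76% of all genes. The Cdkn1a difference was 2.79 ± 0.61 log2 (edgeR adjusted p = 0.051) and the Ccng1 difference 0.82 ± 0.20 (adjusted p = 0.0781). With the 3 outlying libraries left out, 10 members were higher and 1 lower (5.24% of all genes called in that fit), and without 8wk control replicate 1 alone 8 were higher (1.91% of all genes). Without 8wk ME replicate 4 alone 3 were called, Ccng1, Cdkn1a and Sesn2, a count not set against all genes here. Between P14 and E16 edgeR and DESeq2 each called 0 members, and 0 had an unadjusted p under 0.05 in edgeR. Of all genes edgeR called 0.0211% (0.0158% higher, 0.00528% lower) and DESeq2 0.11%. The largest P14 and E16 difference relative to its error was that of Tnfrsf10b (-0.45 ± 0.23).

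**Figure D4:**
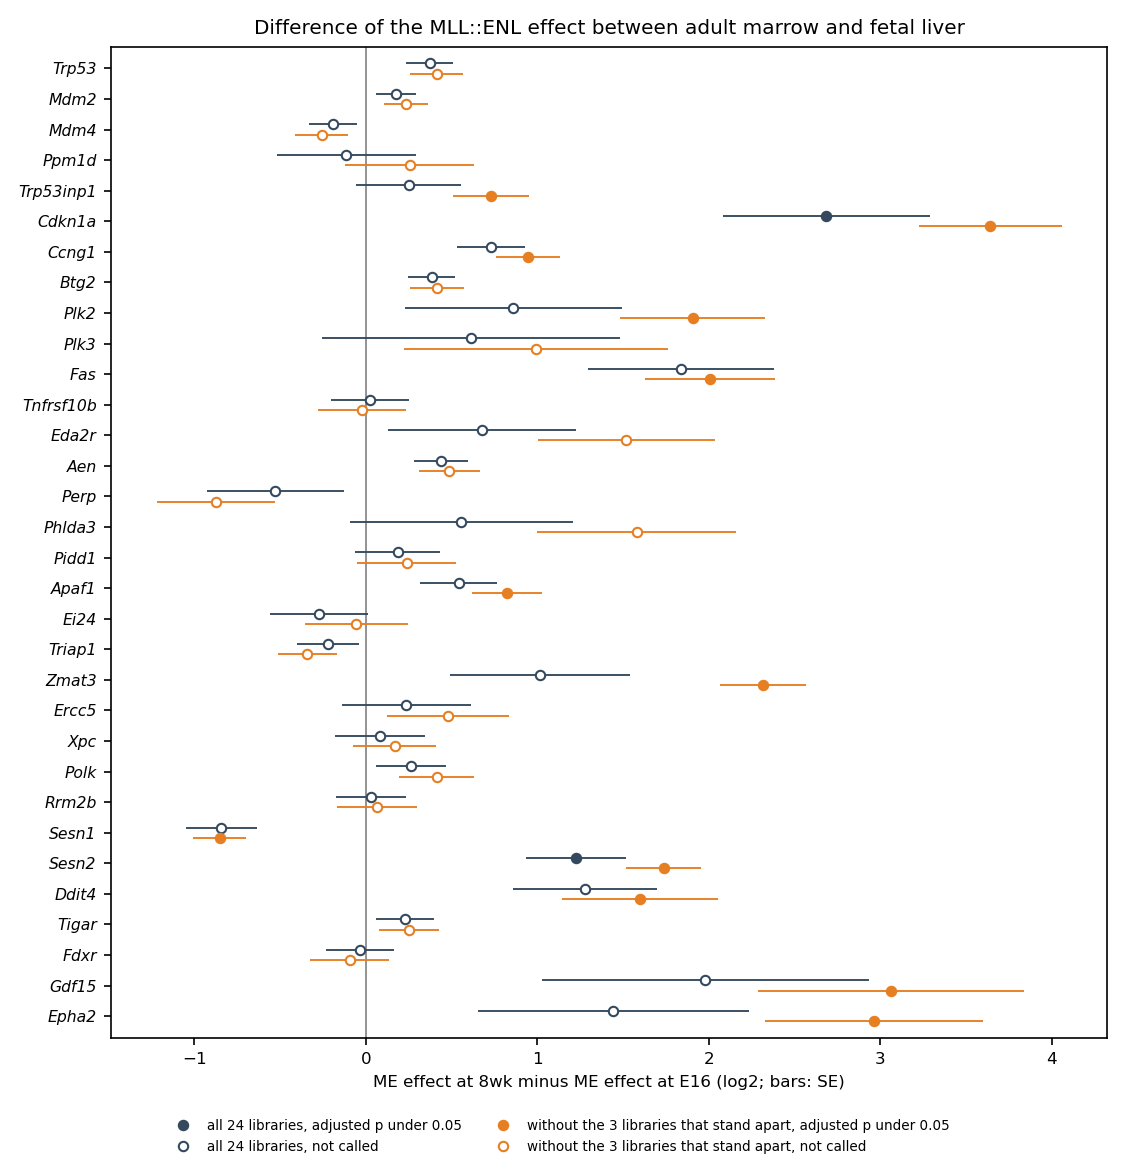
ME effect at 8wk minus ME effect at E16 (x axis, log2, bars SE) for the 32 members (rows), with all 24 libraries (dark) and without the 3 outlying libraries (orange); filled points had an edgeR adjusted p under 0.05. Cdkn1a and Sesn2 are filled with all libraries, and 12 members are filled without the 3.

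The control groups asked how the pathway differed with age in cells without the fusion. Trp53 was lower in 8wk controls than in E16 controls (-0.68 ± 0.10 log2, edgeR adjusted p = 1.85e-05) and than in P14 controls (-0.55 ± 0.10, adjusted p = 0.00121), with no overlap of libraries. Cdkn1a fell from 107 ± 4.77 CPM at E16 to 38.7 ± 10.4 at P14 (-1.47 ± 0.43 log2, adjusted p = 0.0235) and stood at 28.8 ± 24.3 at 8wk (-1.89 ± 0.43 against E16, adjusted p = 0.00316). The difference of Cdkn1a between 8wk and P14 controls was not called with all libraries (-0.42 ± 0.42). Sesn1 rose from 162 ± 14.1 to 264 ± 27.8 CPM between E16 and P14 (0.71 ± 0.15, adjusted p = 0.00173). Markers of other cell types moved with age as well. Between E16 and P14 controls 10 of 10 monocyte, 7 of 8 neutrophil, 4 of 8 erythroid and 5 of 8 megakaryocyte markers fell, and the median summed level of the neutrophil markers was 1679 CPM at E16, 12.1 at P14 and 27.3 at 8wk. Between E16 and 8wk controls 7 of 10 monocyte, 2 of 8 neutrophil, 5 of 8 erythroid and 4 of 8 megakaryocyte markers fell. Their part in the age differences was not tested.

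Between E16 and P14 controls 6 members were called (18.8%, against 15.1% of all genes, 7.61% higher and 7.51% lower): Sesn1 and Tnfrsf10b (0.69 ± 0.16) higher at P14, and Fas (-1.89 ± 0.40), Plk2 (-1.69 ± 0.46), Cdkn1a and Ccng1 (-0.46 ± 0.14) lower. Between P14 and 8wk 6 were called (12.6% of all genes, 7.01% higher and 5.58% lower): Fas (1.58 ± 0.40), Triap1 (0.48 ± 0.13) and Rrm2b (0.51 ± 0.14) higher at 8wk, and Trp53, Btg2 (-0.47 ± 0.10) and Pidd1 (-0.56 ± 0.18) lower. These shares are near those of all genes. The calls of Cdkn1a and Ccng1 between E16 and P14 were lost with the Y-linked covariate, with no filter, and without E16 control replicate 4, P14 control replicate 3 or P14 control replicate 4. That of Ccng1 was also lost with library size only and without E16 control replicate 3 or P14 control replicate 1, and that of Plk2 with no filter. Between P14 and 8wk the calls of Pidd1, Rrm2b and Triap1 were each lost under several alternatives, and that of Fas without P14 control replicate 3. All 8wk libraries lay above all P14 libraries for 1 member, Fas (7.88% of all genes), and below them for 2, Trp53 and Btg2 (8.22%). Without 8wk control replicate 1 the P14 and 8wk count was 3 higher and 7 lower, with Cdkn1a, Sesn2, Apaf1, Epha2 and Zmat3 gained and Pidd1 lost (16.1% of all genes). Without P14 control replicate 3 it was 2 and without 8wk control replicate 3 it was 3, counts not set against all genes here.

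Between E16 and 8wk controls 2 members rose and 9 fell (34.4% called, against 23.3% of all genes). The 6 with the smallest p were Trp53, Btg2 (-0.64 ± 0.10), Pidd1 (-0.88 ± 0.18), Cdkn1a, Sesn1 (0.57 ± 0.15) and Aen (-0.41 ± 0.11), of which Sesn1 rose. These 2 ages also differ in tissue. When the 3 outlying libraries were left out, 2 rose and 13 fell (28.3% of all genes). With 1 of E16 control replicates 2 and 3 or of 8wk control replicates 2 and 3 left out, 7 were called, a count not set against all genes here.

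Other genes of the pathway were taken from lists chosen with earlier results of these data known. Over all genes tested, 13.3%, 12.7% and 14.2% were called higher in ME at E16, P14 and 8wk. Those called lower were 8.47%, 9.35% and 14.3%. Of 14 other p53 targets 13 were tested, of which 2 rose and 3 fell in ME at E16, 2 rose and 3 fell at P14, and 5 rose and 1 fell at 8wk (medians -0.30, -0.19 and 0.41 log2). They include killers of the Bcl2 family. Bax fell at E16 and P14 and rose at 8wk, at -0.37 ± 0.10, -0.59 ± 0.10 and 0.36 ± 0.10 log2 (edgeR adjusted p = 0.0118, 2.49e-04 and 0.012). Pmaip1, which encodes Noxa, rose from 5.46 ± 2.69 to 22.3 ± 11.2 CPM at 8wk (2.02 ± 0.38, adjusted p = 5.13e-04), while Bbc3, which encodes Puma, rose at all 3 ages (1.24 ± 0.43, 1.48 ± 0.43 and 1.37 ± 0.43). Ak1, an adenylate kinase, rose by 0.71 ± 0.24 at E16 (adjusted p = 0.0365), Gtse1, a mitotic p53 inhibitor, was at -0.52 ± 0.18 at E16 and -0.66 ± 0.18 at P14 (adjusted p = 0.0414 and 0.0106), Steap3, a metalloreductase, was at -0.65 ± 0.17 at P14 (adjusted p = 0.01), and Ddb2, of DNA repair, was at -0.75 ± 0.15 at 8wk (adjusted p = 9.10e-04).

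Of 19 upstream regulators of p53, 16 were tested, and 3 fell at E16, 2 fell at P14, and 2 rose and 4 fell at 8wk (medians -0.07, -0.15 and -0.05 log2). Beside these stand 8.47%, 9.35% and 14.3% of all genes called lower at the 3 ages, and 14.2% higher at 8wk. Rpl5, a ribosomal protein that binds Mdm2 when ribosome assembly fails, fell at all 3 ages (-0.63 ± 0.15, -0.53 ± 0.15 and -0.81 ± 0.15 log2; edgeR adjusted p = 0.00394, 0.0133 and 4.39e-04). Its partner Rpl11 was at -0.32 ± 0.12 at E16 (adjusted p = 0.0486). The acetyltransferase Kat5 was at -0.24 ± 0.09 at E16 and the damage kinase Atr at -0.46 ± 0.17 at P14 (adjusted p = 0.0494 and 0.0489). At 8wk the checkpoint kinases Chek2 and Chek1 were at -0.62 ± 0.14 and -0.49 ± 0.13 log2 (adjusted p = 0.00185 and 0.007).

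p21 is known to lower genes of cell division through the DREAM repressor complex. Of 12 such genes 7 fell at E16, 7 at P14 and 6 at 8wk (medians -0.31, -0.37 and -0.27 log2). Over all genes tested 8.47%, 9.35% and 14.3% were called lower at these ages. Cdkn1a itself was called higher at 8wk and was not called at E16 or P14. The part of p21 in these falls was not tested. Mybl2, a transcription factor of the cell cycle, was at -0.83 ± 0.17 at E16 (edgeR adjusted p = 0.00132) and -0.87 ± 0.17 at P14 (adjusted p = 7.82e-04). Cdc20, which activates the anaphase-promoting complex, was at -0.52 ± 0.11, -0.70 ± 0.11 and -0.48 ± 0.11 at the 3 ages (adjusted p = 0.00138, 6.49e-05 and 0.00206). Bub1b, a spindle checkpoint kinase, was at -0.50 ± 0.12 at E16 and -0.58 ± 0.12 at P14, and Ccnb1 and Cdk1, which form the mitotic kinase, were at -0.45 ± 0.10 and -0.54 ± 0.12 at 8wk (adjusted p = 0.00171 and 0.00263).

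Sesn2 and Ddit4 are also targets of ATF4, the transcription factor of the amino acid and unfolded protein response. Of 12 ATF4 stress genes 3 fell at E16, 2 fell at P14, and 6 rose and 1 fell at 8wk (medians -0.45, 0.05 and 1.02 log2). Over all genes tested 8.47%, 9.35% and 14.3% were called lower at these ages, and 14.2% higher at 8wk. The part of ATF4 in the levels of Sesn2 and Ddit4 was not tested. At 8wk Trib3, a pseudokinase, rose by 1.87 ± 0.39 (edgeR adjusted p = 0.0012), Cth, of cysteine synthesis, by 2.63 ± 0.61 (adjusted p = 0.00307), and Nupr1, a stress-induced chromatin protein, by 1.37 ± 0.41 (adjusted p = 0.016). Psat1 and Phgdh, of serine synthesis, were at -0.72 ± 0.16 and -0.70 ± 0.16 at E16 and -0.47 ± 0.16 and -0.46 ± 0.16 at P14, and Asns, asparagine synthetase, was at -1.21 ± 0.43 at E16 (adjusted p = 0.048).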

How the data were processed

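RNA-seq had been done on 24 libraries of cultured mouse LSK cells, 4 in each of 6 groups. The authors deposited a table of raw counts per gene, made with STAR 2.7.9a and featureCounts 2.0.3 of Subread on GRCm38, per the submitters' processing notes, after RNA extraction with a column kit and a SMART-type library kit, per the labels' protocols. The annotation release and the strand setting are not given in the sources used here. Of the 55774 lines, 168 identifiers stood on several lines with equal counts and were used once. Even values made up 63.6% (median over libraries) of counts from 1 to 20.

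Genes were filtered with filterByExpr (minimum count 10) and tested in edgeR 4.0.16 (R 4.3.3) by its quasi-likelihood test with TMM factors, all groups in 1 fit, no covariate, and Benjamini-Hochberg adjustment over all 18931 genes. Coordinates, exon lengths and GC content came from GENCODE M21, which matched 55227 identifiers. Members given in full were Trp53, Cdkn1a, Mdm2, Mdm4 and each member called in an ME comparison or in a difference between ME effects. Members of a control comparison were named up to 6 by smallest adjusted p, and other list genes up to 3 per ME comparison. Members and lists were chosen with earlier results of these data known. Same-numbered control and ME libraries deviated together weakly at P14 (correlations 0.19, 0.14, 0.14 and 0.23). P14 ME replicates 1 and 4 matched the control of their own number best, and replicates 2 and 3 matched another control better. A fit with the replicate number as a block is given beside the P14 results it changes. The alternatives were other scalings, DESeq2 1.42.0, other filters, GC correction, a Y-linked covariate, the groups compared alone, the replicate block and leaving out each library. Leaving out the 3 outlying libraries, and the P14 libraries alone with the block, were added after seeing the data.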

Additional observations from a re-analysis of the deposited data

Results flagged for a closer look

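In a group of 4 libraries, 1 library was called apart when its gap to the nearest other exceeded 0.829 of the group's range. Of 144 groups examined, over the members given in full, 16 held such a library; chance flags about 1 in 20 groups. The 8wk control replicate 1 was the highest of its group for Cdkn1a (65.1 CPM, others 14.4 to 18.7), Phlda3 (24.6 CPM, others 4.02 to 7.05), Zmat3 (12.0 CPM, others 2.57 to 3.07), Plk3 (0.698 CPM, others 0.343 to 0.393), Gdf15 (1.46 CPM, others 0.193 to 0.341) and Epha2 (2.50 CPM, others 0.209 to 0.343). The monocyte, neutrophil, megakaryocyte, mast cell and erythroid marker sums of that library also lay above those of the other 8wk controls. Their part in these levels was not tested. Its Y-linked sum lay above theirs too, and with the Y-linked level as a covariate the 8wk call of Zmat3 was lost (0.98, edgeR adjusted p = 0.0558) while those of the other 5 genes were kept.

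Zmat3 was also apart in E16 ME replicate 4 (16.4 CPM, others 6.29 to 7.96) and, at the low end, in P14 control replicate 4 (6.89 CPM, others 9.26 to 9.63). P14 ME replicate 4 was the lowest of its group for Apaf1 (51.1 CPM, others 70.1 to 72.0) and Ppm1d (22.8 CPM, others 36.2 to 37.3), and E16 ME replicate 1 for Apaf1 (74.7 CPM, others 97.1 to 101). Trp53inp1 was low in P14 control replicate 3 (40.5 CPM, others 47.8 to 49.0). Single high libraries were found for Mdm2 in E16 control replicate 3 (123.8 CPM, others 103 to 106), Rrm2b in E16 control replicate 4 (12.4 CPM, others 9.42 to 9.92), Ddit4 in E16 ME replicate 2 (9.15 CPM, others 6.80 to 7.20) and Ei24 in P14 ME replicate 2 (193 CPM, others 169.6 to 173).

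The ME effect differed between 8wk and E16 by 2.69 log2 for Cdkn1a and by 1.22 for Sesn2, in the test of the difference itself (edgeR adjusted p = 0.0363 and 0.0448). Both calls depended on which library was left out, as given with those differences.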

How the results depend on the processing

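Of the 32 member calls in the 3 ME comparisons 19 were kept under every alternative run, 13 were lost under at least 1, and 0 reversed; the cause of the losses was not tested. Leaving out 1 library at a time gave 6 to 8 members called at E16, 5 to 8 at P14, 11 to 20 at 8wk, 0 to 9 for 8wk minus E16, 0 to 8 for 8wk minus P14, 4 to 6 for control P14 against E16, 2 to 10 for control 8wk against P14 and 7 to 13 for control 8wk against E16, with fewer samples in each fit. The share of all genes called moved between fits too. With only the groups compared, 10 members were called at 8wk (17.2% of all genes) and 0 for 8wk minus E16 (0.302%). For the controls that fit called 10 for P14 against E16 (20%), 3 for 8wk against P14 (6.39%) and 6 for 8wk against E16 (23.3%). The 8wk minus E16 count was 1 with library size only (0.808%), 5 with DESeq2 (3.33%) and 1 with no filter (0.278%). It was 12 without the 3 outlying libraries and 0 with Y-linked genes as a covariate. The 8wk minus P14 count was 1 with RLE size factors (0.328%), 4 with DESeq2 (1.76%) and 1 with at least 1 CPM in 4 libraries (0.498%). It was 2 with GC correction (0.317%) and 11 without those 3. With no filter the control counts were 3 (P14 against E16, 5.98%), 3 (8wk against P14, 3.86%) and 7 (8wk against E16, 9.19%). Without those 3 libraries control 8wk against P14 gave 10.

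With the replicate block 4 members were called for 8wk minus E16 (1.89% of all genes) and 1 for 8wk minus P14 (0.338%). The other counts stayed within 1.5 times. At P14 alone the block gave 9 calls. At E16 and 8wk the correlations of same-numbered libraries (-0.09 to 0.12) were all below those at P14.

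Library size in place of TMM moved the median of all genes to 0.11 log2 at E16 and P14, and the share of higher calls among all genes from 61.1% to 74.6% at E16, from 57.5% to 70.5% at P14 and from 55.7% to 43.2% for control 8wk against P14. Plk3 had few counts, 3 to 50 per control library, and was called at all 3 ages under every alternative run. Whether depth limited other members was not tested.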
